A study of Mus musculus with 82 samples.

Results

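Spindle, kinetochore and mitotic entry genes are the genes a cell switches on in G2 to enter and complete mitosis. A fixed list of 49 such genes, grouped by role, was read out of the 55401 genes in the count tables, 34819 of them with any count. The list was made from gene function and was matched by gene symbol. All 49 members had a row and passed the filter on low counts at both time points.

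The study incubated primary mouse aortic vascular smooth muscle cells (aVSMC) with ligands of EGFR (the EGF receptor), AT1R (a receptor of angiotensin II) and TP (the thromboxane receptor), alone and combined, to ask whether these receptors influence each other's effect on gene expression. The ligands were EGF at 10 µg/L, angiotensin II (AngII) at 10 nM and U46619, a stable agonist of TP, at 1 µM. All cells came from C57BL/6 mice, had up to 7 passages in a medium that holds EGF, serum and insulin, and were kept for 24 h without serum and supplements before the incubation. At 24 h cells of the same 6 mice were left without ligand (control), received each ligand alone, EGF with AngII, EGF with U46619, or all 3 ligands. At 48 h there were 2 batches of 5 culture sets, each with a control and EGF. The first added U46619 alone and with EGF (EGF/U46619 batch), the second AngII alone and with EGF (EGF/AngII batch). Both ligands of a combination were given to the same culture. The labels give the 10 culture sets at 48 h only 5 mouse numbers, of which mice 7 and 10 occur in both batches, whereas the methods describe a separate mouse for each replicate. Mouse 7 is given for replicates 1 and 4 of the EGF/U46619 batch and for replicates 1, 2 and 5 of the EGF/AngII batch. Mouse 10 is given for replicate 5 of the first and replicate 4 of the second. Where sets share a mouse, the p-values at 48 h measure in part the spread between cultures. An n of 5 at 48 h, and its SD, count culture sets and not mice. As a model of the vessel wall these were cultured, passaged cells of a single strain, and neither the cell number nor the share of cells in mitosis is known for a library.

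Mitotic entry is driven by Cdk1 with its cyclins, whose activation is held back by Wee1-type kinases and released by Cdc25 phosphatases. Kinetochore proteins then attach chromosomes to spindle microtubules, the spindle checkpoint holds the anaphase-promoting complex back until all are attached, and the complex, through Cdc20, marks cyclin B and securin for destruction so that separase can part the sister chromatids. In resting cells most of these genes are kept off by the DREAM complex, which sits at cell cycle homology region (CHR) elements, and they are switched on in G2 by the MuvB core with B-Myb (Mybl2) and Foxm1, often together with the factor NF-Y at CCAAT boxes. Vascular smooth muscle cells are mostly resting in the healthy aorta and can return to the cycle in culture.

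Promoters of members were examined because the letters known for these factors can be read directly. Windows of 300 bases, from 250 bases before to 50 after the gene's start, were available for 39 of the 49 members from RefSeq (GRCm38.p6). A CHR element (TTTGAA or TTCGAA on either strand) was found for 28 of the 39, or 71.8%, against 21.7% of all 27025 genes with windows of the same length. A CCAAT box (CCAAT on either strand) was found for 29, or 74.4%, against 41.1% of all genes, and 20 members held at least 2 boxes. Both motifs were found for 26, or 66.7%, against 8.61% of all genes. A gene with several windows was counted once, neither motif contains the other, and a match is a run of letters and not a shown binding site. The following 7 windows are shown 5′ to 3′ on the gene's own strand, with CHR elements and CCAAT boxes in capitals. Cdk1, Cdc20, Plk1, Ube2c and Top2a stand for members that hold both motifs. Mybl2 had the largest change towards higher levels after U46619 and Pttg1 the only call towards lower, and neither motif was found in their windows. The Pttg1 window is set on a RefSeq start and lies wholly inside the gene's GENCODE span given below. It does not reach the 5′ end of that span, so the letters there were not read.
Cdk1 (chr10:69352863-69353162, minus strand): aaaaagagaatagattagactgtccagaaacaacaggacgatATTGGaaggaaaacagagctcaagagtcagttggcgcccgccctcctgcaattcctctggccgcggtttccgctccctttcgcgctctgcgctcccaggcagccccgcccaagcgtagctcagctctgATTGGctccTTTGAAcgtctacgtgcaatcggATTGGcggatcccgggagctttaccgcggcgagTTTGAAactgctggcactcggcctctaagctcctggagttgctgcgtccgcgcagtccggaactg
Cdc20 (chr4:118437294-118437593, minus strand): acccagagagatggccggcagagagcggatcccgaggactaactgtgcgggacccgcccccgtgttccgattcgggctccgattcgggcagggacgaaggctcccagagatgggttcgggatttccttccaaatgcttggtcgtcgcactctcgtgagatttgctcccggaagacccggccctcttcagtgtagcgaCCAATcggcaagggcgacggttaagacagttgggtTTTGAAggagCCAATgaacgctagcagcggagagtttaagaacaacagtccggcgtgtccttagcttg
Plk1 (chr7:122159185-122159484, plus strand): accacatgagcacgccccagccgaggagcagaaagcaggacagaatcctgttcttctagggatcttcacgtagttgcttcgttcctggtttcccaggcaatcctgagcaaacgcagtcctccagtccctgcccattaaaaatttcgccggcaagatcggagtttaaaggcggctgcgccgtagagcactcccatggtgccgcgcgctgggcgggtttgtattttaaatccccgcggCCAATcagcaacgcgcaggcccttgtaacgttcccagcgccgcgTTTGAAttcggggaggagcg
Ube2c (chr2:164769679-164769978, plus strand): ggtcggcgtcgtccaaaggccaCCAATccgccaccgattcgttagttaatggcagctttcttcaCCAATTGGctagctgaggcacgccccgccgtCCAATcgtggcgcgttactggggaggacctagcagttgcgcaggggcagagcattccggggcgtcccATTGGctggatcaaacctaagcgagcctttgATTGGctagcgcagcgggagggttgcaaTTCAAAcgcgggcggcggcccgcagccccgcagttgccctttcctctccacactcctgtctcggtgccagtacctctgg
Top2a (chr11:99024140-99024439, minus strand): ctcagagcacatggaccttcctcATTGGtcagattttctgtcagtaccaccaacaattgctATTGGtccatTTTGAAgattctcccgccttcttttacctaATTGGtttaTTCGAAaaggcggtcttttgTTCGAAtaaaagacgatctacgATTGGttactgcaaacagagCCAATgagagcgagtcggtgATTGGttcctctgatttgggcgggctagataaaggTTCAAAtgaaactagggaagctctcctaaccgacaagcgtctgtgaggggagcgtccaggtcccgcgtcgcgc
Mybl2 (chr2:163054385-163054684, plus strand): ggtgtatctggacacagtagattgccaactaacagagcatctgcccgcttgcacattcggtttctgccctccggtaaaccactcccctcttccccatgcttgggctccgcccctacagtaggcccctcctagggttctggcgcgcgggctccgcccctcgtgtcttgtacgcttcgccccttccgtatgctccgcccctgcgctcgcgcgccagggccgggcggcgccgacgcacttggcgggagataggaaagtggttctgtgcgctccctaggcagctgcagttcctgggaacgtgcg
Pttg1 (chr11:43425932-43426231, minus strand): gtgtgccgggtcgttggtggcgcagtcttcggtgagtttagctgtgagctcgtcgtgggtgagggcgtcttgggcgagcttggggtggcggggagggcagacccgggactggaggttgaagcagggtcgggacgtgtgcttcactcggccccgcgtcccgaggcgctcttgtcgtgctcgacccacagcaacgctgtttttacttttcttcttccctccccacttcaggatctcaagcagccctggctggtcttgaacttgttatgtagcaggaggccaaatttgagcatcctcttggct

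Levels are given as FPM, that is counts scaled to a fixed library size (cpm in edgeR, with TMM factors), without correction for gene length. A gene was called a differentially expressed gene (DEG) where the false discovery rate (FDR) was under 0.05 in both edgeR and DESeq2 and either group compared had a mean of 5 FPM or more. All log2-fold changes are edgeR estimates with their SE, from a model with mouse and treatment. A library held 16483529 to 20818809 counts at 24 h and 19936925 to 33916114 at 48 h. In these bulk libraries, fewer cycling cells and less mitotic RNA per cell cannot be told apart. The reads were counted with multi-mapping reads included. Of the 2 pseudogene rows named for a member, Ccnb1.ps took 978 counts over all 82 libraries and Kif22.ps 0. Pseudogenes under other names were not examined, so the share of multi-mapping reads in the members is not known.

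Of the 10 smooth muscle markers checked, 8 could be tested, whereas Tagln and Cnn1, defining genes of this cell type on chromosome 9, were listed at 0 in every library together with all other genes of chromosomes 9, X, Y and MT. The 8 smooth muscle markers summed to 454 to 19095 FPM at 24 h, the 8 fibroblast markers to 221 to 4700 FPM and the 3 tested macrophage and leukocyte markers of 8 to 17.5 to 114 FPM. Endothelial markers differed between the mice. Over the 7 libraries of each, 7 tested endothelial markers of 8 (Cdh5 was at 0) summed to 1.84 to 7.20 FPM in mouse 1, 2.33 to 6.57 in mouse 2, 20.3 to 61.2 in mouse 3, 597 to 800.5 in mouse 4, 333 to 443 in mouse 5 and 1949 to 2525 in mouse 6. One library stood apart at each time point. At 24 h, the EGF+AngII+U46619 library of mouse 3 deviated from the sum of its mouse and treatment effects with an SD of 0.797 over genes (log2). The next library was the control of mouse 1 with 0.492, and the median was 0.275. The differences of mouse 1 given below are set against that control. At 48 h, the control library of replicate 4 of the EGF/AngII batch had an SD of 0.667, against 0.292 for the next, and its endothelial markers summed to 2266 FPM, against 318 in the lowest library of its set.

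At 24 h the median log2-fold change of the 49 genes was above 1 after every incubation that contained EGF or U46619, and between 0 and 45 of them were DEG. EGF alone gave 0 DEG among the 49 genes, where 0.0273% of the 14653 genes tested were DEG, although 48 members had an edgeR p under 0.05, all higher, against 7.91% of all genes (DESeq2 alone called 2, Foxm1 and Mybl2, and 1.8% of all genes). AngII alone also gave 0 (0.0% of all genes), with 0 members at an edgeR p under 0.05 (0.478% of all genes) and 0 in DESeq2. U46619 raised 8 members and lowered 1, where 12.8% of all genes were called higher and 13.8% lower. EGF+AngII raised 3 members (1.53% of all genes called higher), Kif18a, Foxm1 and Mad2l1, whereas 49 had an edgeR p under 0.05 (48 higher and 1 lower, 24.7% of all genes) and DESeq2 alone called 31 (9.04% of all genes). EGF+U46619 raised 44 members and lowered 1 (16.2% and 15.7% of all genes), and EGF+AngII+U46619 raised 41 (17.5% of all genes). These counts rest on a fit over all 7 groups. With only the groups compared, EGF+U46619 gave 4 DEG among the members, all 3 ligands 2, U46619 1 and EGF+AngII 0. The share of all genes called in these smaller fits is not given here, so whether the drop is particular to the members cannot be read. The median log2-fold change of the 49 was 1.46 after EGF, 0.01 after AngII, 1.15 after U46619, 1.54 after EGF+AngII, 1.75 after EGF+U46619 and 1.67 after all 3 ligands, whereas that of all genes lay between -0.06 and 0.03 in every comparison at 24 h.

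The mice differed in level and in change. Summed over the 49 genes, the control libraries of mice 1 to 6 held 248.8, 332, 451, 899, 647 and 1183 FPM. After EGF the sums were 3704, 1929, 3213, 1141, 1329 and 1328 FPM, higher than the mouse's own control in all 6 mice. After U46619 they were 4115, 2992, 2194, 630.4, 610.4 and 1028 FPM, so that mice 1, 2 and 3 rose above every control library while mice 4, 5 and 6 lay below their own controls. After EGF+U46619 they were 6022, 3734, 4954, 802, 899 and 1013 FPM. Mice 1, 2 and 3 reached their highest sums of these 3 incubations there, mouse 5 lay above its control and mice 4 and 6 below. After AngII the sums were 408, 317, 519, 917, 615 and 1167 FPM, close to control in each mouse but mouse 1.

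**Figure D1:**
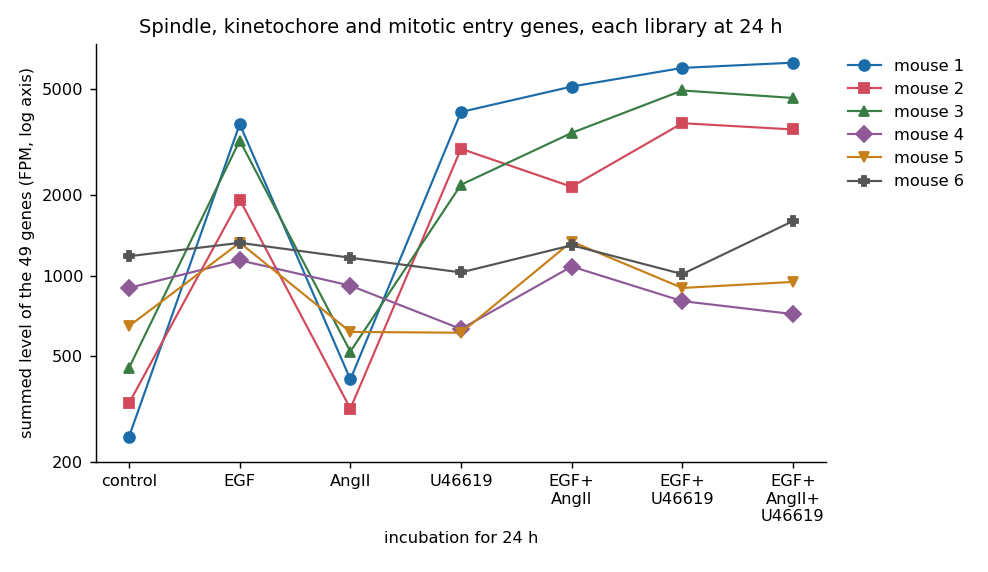
Summed level of the 49 genes in each of the 42 libraries at 24 h (FPM, log axis), 1 line for each mouse and 1 position for each incubation, without averaging. Mice 1, 2 and 3 start from 248.8 to 451 FPM in control and reach 3734 to 6022 FPM after EGF+U46619, while mice 4, 5 and 6 stay between 610.4 and 1602 FPM in all 7 libraries.

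The same order was found gene by gene. The median over the 49 members of the log2 difference to the mouse's own control was 4.47, 2.72, 2.97, 0.31, 1.05 and 0.16 in mice 1 to 6 after EGF, with 48, 48, 48, 39, 48 and 46 members higher. After U46619 it was 4.64, 3.30, 2.44, -0.53, -0.07 and -0.22, with 48, 48, 48, 7, 20 and 13 members higher. After EGF+U46619 it was 5.01, 3.72, 3.65, -0.14, 0.48 and -0.25. Over the 6 mice these medians came to 1.95 ± 1.71 (SD, n = 6) after EGF, 1.59 ± 2.17 after U46619 and 2.08 ± 2.31 after EGF+U46619. The mice with the larger differences (1, 2 and 3) were those with the lower control levels and with the lower endothelial marker sums given above. The part of both in the result was not tested, and with 6 mice the control level, the cell makeup and the response cannot be told apart.

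Counted as higher in every mouse, 37 of the 49 members were higher after EGF in 6 of 6 mice, where 7.16% of all genes were, and 34 after EGF+AngII (8.75% of all genes). After U46619 this held for 5 members (16.2% of all genes), after EGF+U46619 for 4 (12.1%), after all 3 ligands for 11 (10.2%) and after AngII for 3 (0.573%). EGF thus gave no DEG among the members in this fit but the larger count of members with 1 direction in every mouse. U46619 gave calls with fewer such members. The largest edgeR p with an FDR under 0.05 over all genes was 4.33e-06 after EGF and 0.0168 after U46619. The median edgeR p of the members was 0.0107 after EGF and 0.0327 after U46619. The lack of calls after EGF thus does not show a smaller change of the members than after U46619. With the same stated rule, the paper reports more DEG after EGF over all genes than this fit gave.

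**Figure D2:**
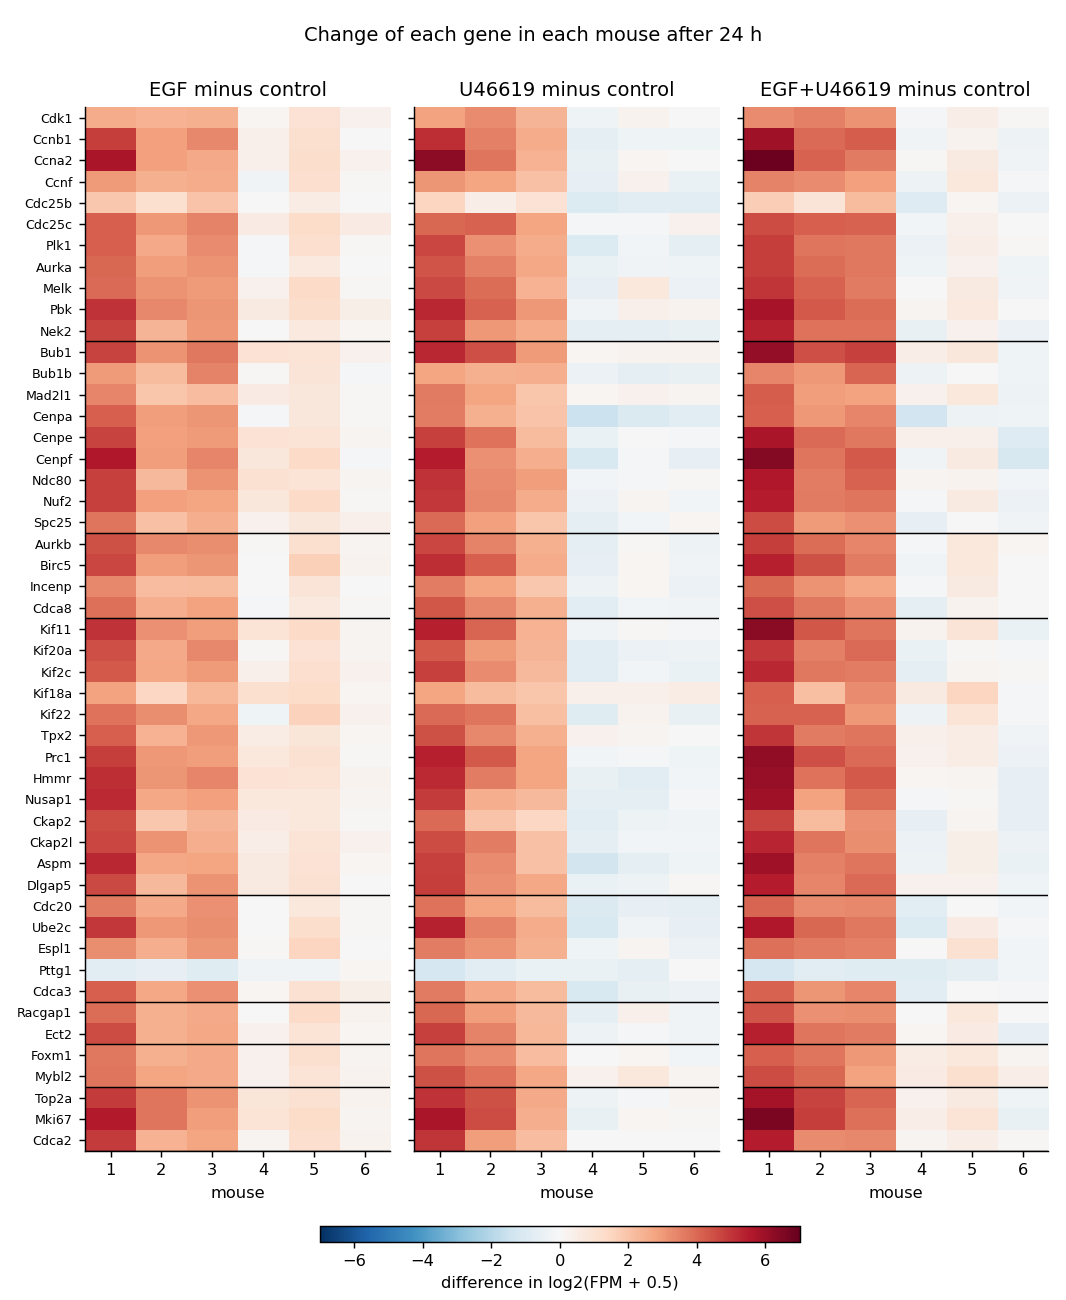
Difference of each of the 49 genes (rows, separated by role) to the same mouse's control after EGF, U46619 and EGF+U46619 at 24 h, on the log2(FPM + 0.5) scale, with red for higher and blue for lower. After U46619, 48 genes were higher in each of mice 1, 2 and 3, whereas 7, 20 and 13 were higher in mice 4, 5 and 6, and Pttg1 is the row that stays blue.

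Most genes of mitotic entry were DEG in the combination of EGF with U46619. Of the 11 (median log2-fold change 1.39 after EGF, 1.15 after U46619 and 1.70 after EGF+U46619), 2 were DEG after U46619 and 10 after EGF+U46619. For this and the following groups, 12.8% of all genes were called higher after U46619 and 16.2% after EGF+U46619. Cdk1 (chr10:69335146-69352938 in mm10), the kinase that drives entry into mitosis, held 31.2, 25.5, 34.7, 68.7, 41.2 and 64.0 FPM in the controls of mice 1 to 6. It held 191, 138, 194, 75.6, 84.2 and 78.4 FPM after EGF and 225, 254, 182.04, 55.3, 49.3 and 63.4 FPM after U46619. After EGF+U46619 Cdk1 held 318, 296, 316, 63.7, 56.4 and 67.2 FPM, so that mice 1, 2 and 3 lay above all controls and mice 4, 5 and 6 within the range of the controls. The fitted log2-fold change of Cdk1 was 1.18 ± 0.42 after EGF (FDR 0.143), 1.17 ± 0.43 after U46619 (FDR 0.0336) and 1.54 ± 0.44 after EGF+U46619 (FDR 0.0052). EGF and U46619 thus gave nearly equal estimates for Cdk1, with the FDR on different sides of the threshold.

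Pbk, a kinase of mitotic cells, was the other call of this group after U46619 (1.62 ± 0.59). Ccnb1, the B-type cyclin that pairs with Cdk1, ranged from 2.04 to 33.4 (median 13.2) FPM in control, 31.3 to 94.2 (median 39.2) after EGF and 20.2 to 167.6 (median 53.8) after EGF+U46619, where it was a DEG (1.75 ± 0.62). Plk1, which promotes entry and spindle assembly, ranged from 4.25 to 24.2 (median 9.19) FPM in control and 9.61 to 135 (median 55.4) after EGF+U46619, a log2-fold change of 1.70 ± 0.57. Cdc25c, a phosphatase that activates Cdk1, had 1.89 ± 0.61 after EGF, the highest of the 49, and 1.59 ± 0.62 after U46619, where edgeR (FDR 0.0442) and DESeq2 (FDR 0.0556) fell on either side of 0.05. Cdc25b, a phosphatase that starts Cdk1 activation at the centrosome, stood apart within the group, with a range of 8.78 to 25.6 (median 13.5) FPM in control, 5.44 to 47.3 (median 13.6) after U46619 and 6.69 to 68.7 (median 18.1) after EGF+U46619. Its log2-fold change was -0.03 ± 0.31 after U46619 and 0.55 ± 0.31 after EGF+U46619, not a DEG in either, and it was the only member of this group not called after EGF+U46619.

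Kinetochore and checkpoint genes (9 members, medians 1.56, 1.24 and 1.81 after EGF, U46619 and EGF+U46619) gave 2 DEG after U46619 and 8 after EGF+U46619. Bub1, a checkpoint kinase at the kinetochore, held 0.359, 1.08, 1.1, 5.52, 6.03 and 9.24 FPM in the controls of mice 1 to 6 and 32.4, 35.2, 12.2, 6.00, 7.22 and 11.1 FPM after U46619. After EGF+U46619 Bub1 held 60.9, 35.8, 44.3, 7.80, 11.0 and 7.39 FPM, and its log2-fold change of 2.40 ± 0.66 (FDR 0.00418) was the highest of the 49. Mad2l1, which inhibits Cdc20 at the checkpoint, rose by 1.25 ± 0.41 after U46619, 1.40 ± 0.41 after EGF+AngII and 1.60 ± 0.42 after EGF+U46619. Cenpa, the histone that marks centromeres and the leading gene of this group by level, was not a DEG after EGF, U46619 or EGF+U46619. It held 6.95, 4.93, 13.8, 38.3, 14.9 and 32.8 FPM in control, 134, 40.2, 121, 34.5, 26.1 and 34.9 after EGF and 88.5, 30.0, 56.2, 12.9, 7.22 and 19.4 after U46619. Cenpa was thus lower after U46619 than in control in mice 4, 5 and 6 and higher in mice 1, 2 and 3, with a log2-fold change of 0.28 ± 0.58 (FDR 0.742). It was 0.97 ± 0.59 after EGF+U46619 (FDR 0.187) and a DEG only after all 3 ligands (1.49 ± 0.60, FDR 0.0432), where the library of mouse 3 that stands apart held 406 FPM. Without that library it was 0.96 ± 0.57 (edgeR FDR 0.165) and no DEG.

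The 4 genes of the chromosomal passenger complex, which corrects faulty attachments and guides cytokinesis, gave 0 DEG after U46619 (median 1.17) and 4 after EGF+U46619 (median 1.62). Incenp, the scaffold of the complex, ranged from 9.34 to 34.3 (median 18.0) FPM in control, 26.1 to 99.1 (median 39.9) after EGF, 19.5 to 115 (median 47.4) after U46619 and 23.1 to 157.9 (median 60.4) after EGF+U46619. Its log2-fold change was 1.03 ± 0.42 after U46619 (FDR 0.0531) and 1.5 ± 0.42 after EGF+U46619 (FDR 0.00475). Birc5, or survivin, ranged from 2.28 to 24.1 (median 8.80) FPM in control and 15.6 to 121 (median 57.9) after EGF+U46619, and had the highest log2-fold change of the 49 after all 3 ligands (2.38 ± 0.67). Without the library that stands apart it was 1.89 ± 0.65 (edgeR FDR 0.0168), and Bub1 (2.21 ± 0.68) was the highest. Aurkb, the kinase of the complex, had 1.22 ± 0.55 after U46619 and rose by 1.74 ± 0.55 after EGF+U46619.

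All 13 spindle motors and microtubule-associated proteins were DEG after EGF+U46619 (median 1.79), against 1 after U46619 (median 1.13) and 0 after EGF (median 1.47). That 1 gene was Tpx2, which activates Aurora A on the spindle. Tpx2 held 7.37, 12.1, 14.0, 35.7, 28.3 and 49.6 FPM in the controls of mice 1 to 6, 173.3, 129, 80.0, 43.8, 32.2 and 49.8 after U46619 and 253, 154.3, 194, 46.1, 40.6 and 41.0 after EGF+U46619. In the combination, mice 1, 2 and 3 lay above all controls and mice 4, 5 and 6 within the range of the controls. Its log2-fold change was 1.39 ± 0.51 after U46619 (FDR 0.0333) and 1.86 ± 0.52 after EGF+U46619 (FDR 0.00475). Kif18a, a motor that damps chromosome movement, passed the FDR in both tools after U46619 (1.42 ± 0.47) but not the minimum of 5 FPM, with a range of 0.419 to 3.38 (median 1.5) FPM in control and 2.1 to 8.81 (median 4.47) after U46619. Kif11, the motor that parts the spindle poles, rose by 2.11 ± 0.63 after EGF+U46619, and Prc1, which bundles the central spindle, by 2.09 ± 0.65.

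The group around the anaphase-promoting complex was the least uniform. Of its 5 genes, 1 rose and 1 fell after U46619 (median 0.70), and 2 rose and 1 fell after EGF+U46619 (median 1.25). Ube2c, the complex's E2 enzyme, held 3.11, 4.93, 14.0, 37.5, 15.9 and 47.3 FPM in the controls of mice 1 to 6, 112, 44.7, 136, 36.4, 38.6 and 50.7 after EGF and 150.5, 59.2, 86.6, 17.5, 13.3 and 32.1 after U46619. It was higher than control after U46619 in mice 1, 2 and 3 and lower in mice 4, 5 and 6, and its log2-fold change of 1.03 ± 0.64 was not a DEG (FDR 0.217). After EGF+U46619 it was a DEG (1.58 ± 0.65, FDR 0.0489). Cdc20, the activator of the complex, had 1.25 ± 0.54 after EGF+U46619 (FDR 0.0643) and Cdca3, a trigger of mitotic entry, had 1.24 ± 0.54 (FDR 0.0635), both short of the threshold. Espl1, or separase, which cuts the cohesin ring, rose by 1.26 ± 0.49 after U46619 and 1.82 ± 0.50 after EGF+U46619.

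Pttg1 (chr11:43420250-43426251 in mm10) encodes securin, the inhibitor of separase, and was the only member called lower. It held 38.6, 58.2, 43.9, 34.0, 30.8 and 23.6 FPM in the controls of mice 1 to 6, 21.7, 38.8, 23.8, 28.4, 25.5 and 25.6 after EGF and 16.9, 33.3, 32.2, 24.6, 19.7 and 23.4 after U46619. After EGF+U46619 it held 16.8, 34.6, 24.6, 18.7, 19.4 and 20.9 FPM, lower than the mouse's own control in 6 of 6 mice, as it was after U46619. Lower in every mouse were 17.9% of all genes after U46619 and 12.5% after EGF+U46619. The log2-fold change of Pttg1 was -0.61 ± 0.23 after U46619 (edgeR FDR 0.0345, DESeq2 0.0457) and -0.76 ± 0.23 after EGF+U46619 (edgeR FDR 0.00757, DESeq2 0.00839). After EGF it was -0.44 ± 0.23 (FDR 0.298).

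A single library weighed on Pttg1. In the library of mouse 3 that stands apart, Pttg1 held 103 FPM against 24.6 in the EGF+U46619 library of the same mouse, and its log2-fold change after all 3 ligands was -0.34 ± 0.23 (FDR 0.239). Without that library it was -0.80 ± 0.13 (FDR 2.11e-05), and the values after U46619 and EGF+U46619 were -0.58 ± 0.13 (FDR 0.000561) and -0.74 ± 0.13 (FDR 2.41e-05). With it, the U46619 call of Pttg1 was lost without mouse 1 (FDR 0.158), 2 (0.124), 4 (0.0659) or 5 (0.0987) and without the mouse as a block (0.281). The EGF+U46619 call was lost without mouse 1 (DESeq2 FDR 0.0635) and without the block (edgeR FDR 0.126).

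Pttg1 differed from the other members in further measures. In the 24 h controls it had the highest level per kb of exon of the 49, a median of 18.2 FPM per kb (11.8 to 29.1), followed by Cdk1 with 7.68, Cdc20 with 7.58, Ckap2 with 6.33, Ube2c with 5.75, Tpx2 with 4.53 and Top2a with 4.33. The range of Cdk1 (5.17 to 13.9) overlapped that of Pttg1, the last 6 overlapped each other, and Kif18a was lowest with 0.153. Over the 42 libraries at 24 h, which share mice, the Pearson r of Pttg1 with the mean of the other members was -0.35. For the other 48 it ranged from 0.73, in Cdc25b, to 0.989, with a median of 0.957.

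**Figure D3:**
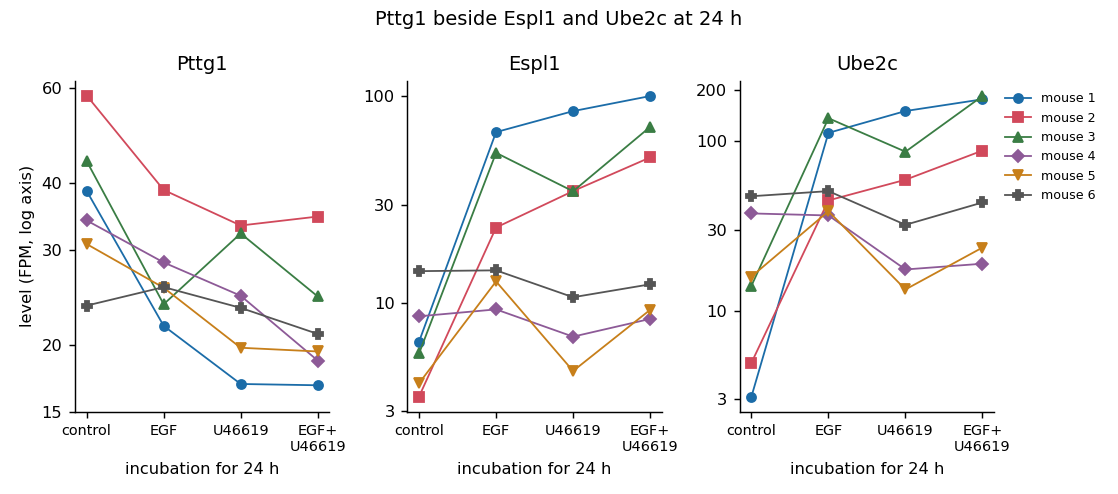
Levels (FPM, log axis) of Pttg1 (securin), Espl1 (separase) and Ube2c in each mouse after control, EGF, U46619 and EGF+U46619 incubation for 24 h, 1 line for each mouse. Pttg1 is below the mouse's own control after U46619 and EGF+U46619 in 6 of 6 mice, while Espl1 and Ube2c rise in mice 1, 2 and 3.

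Both genes of cytokinesis followed the main pattern, with 0 DEG after U46619 (median 1.19) and 2 after EGF+U46619 (median 1.74). Racgap1, which with Ect2 sets the cleavage furrow, held 14.9, 16.3, 24.7, 32.8, 19.4 and 43.1 FPM in the controls of mice 1 to 6, 254, 126, 121, 20.5, 24.4 and 35.7 after U46619 and 327, 151.9, 236, 32.3, 33.1 and 41.5 after EGF+U46619. It just missed the threshold after U46619 (1.14 ± 0.45, FDR 0.0504) and passed it after EGF+U46619 (1.63 ± 0.46, FDR 0.00503). Ect2, the exchange factor for RhoA, had 1.24 ± 0.59 and 1.86 ± 0.60.

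The transcription factors Foxm1 and Mybl2 were both DEG after U46619, EGF+U46619 and all 3 ligands, and they were the only members that DESeq2 alone called after EGF. Mybl2 (chr2:163054687-163084688 in mm10), or B-Myb, held 2.58, 1.85, 4.57, 7.80, 5.89 and 10.0 FPM in the controls of mice 1 to 6 and 41.5, 15.5, 31.8, 9.65, 11.7 and 11.9 FPM after EGF. It held 65.9, 31.7, 33.1, 9.60, 10.1 and 11.5 FPM after U46619 and 72.7, 37.5, 35.2, 11.9, 13.3 and 14.0 FPM after EGF+U46619. It was higher than control in 6 of 6 mice after each of the 3 incubations. Its log2-fold change of 1.85 ± 0.47 after U46619 (edgeR FDR 0.00297, DESeq2 0.000569) was the highest of the 49, and it was 1.52 ± 0.46 after EGF (FDR 0.104) and 2.07 ± 0.47 after EGF+U46619 (FDR 0.000785). Foxm1 held 9.52, 8.16, 12.8, 16.1, 14.3 and 23.5 FPM in control, 133, 84.2, 59.5, 16.3, 16.0 and 20.9 after U46619 and 179.2, 115, 107, 23.1, 23.8 and 27.4 after EGF+U46619. Its log2-fold change was 1.49 ± 0.45 after EGF (edgeR FDR 0.101, DESeq2 0.0418), 1.34 ± 0.45 after U46619 (FDR 0.0209) and 1.88 ± 0.46 after EGF+U46619 (FDR 0.00141).

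The 3 genes of chromosome structure had the largest median changes of the groups after EGF and EGF+U46619 (1.63 and 2.08, and 1.41 after U46619), with 0 DEG after U46619 and 3 after EGF+U46619. Top2a, the topoisomerase that untangles sister chromatids, held 8.98, 13.6, 21.8, 56.2, 59.6 and 83.8 FPM in the controls of mice 1 to 6, 319, 310.0, 139.9, 44.3, 54.3 and 94.4 after U46619 and 538, 377, 383, 69.2, 90.7 and 66.7 after EGF+U46619. Its log2-fold change was 1.41 ± 0.60 after U46619 (FDR 0.0667) and 2.08 ± 0.62 after EGF+U46619 (FDR 0.00745). Mki67, the proliferation marker that coats mitotic chromosomes, ranged from 2.70 to 42.3 (median 13.3) FPM in control, 32.4 to 150.6 (median 71.0) after EGF and 22.3 to 305 (median 101.03) after EGF+U46619, and rose by 2.20 ± 0.64 in the combination. Cdca2, a regulator of chromatin at mitotic exit, rose by 1.88 ± 0.54.

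**Figure D4:**
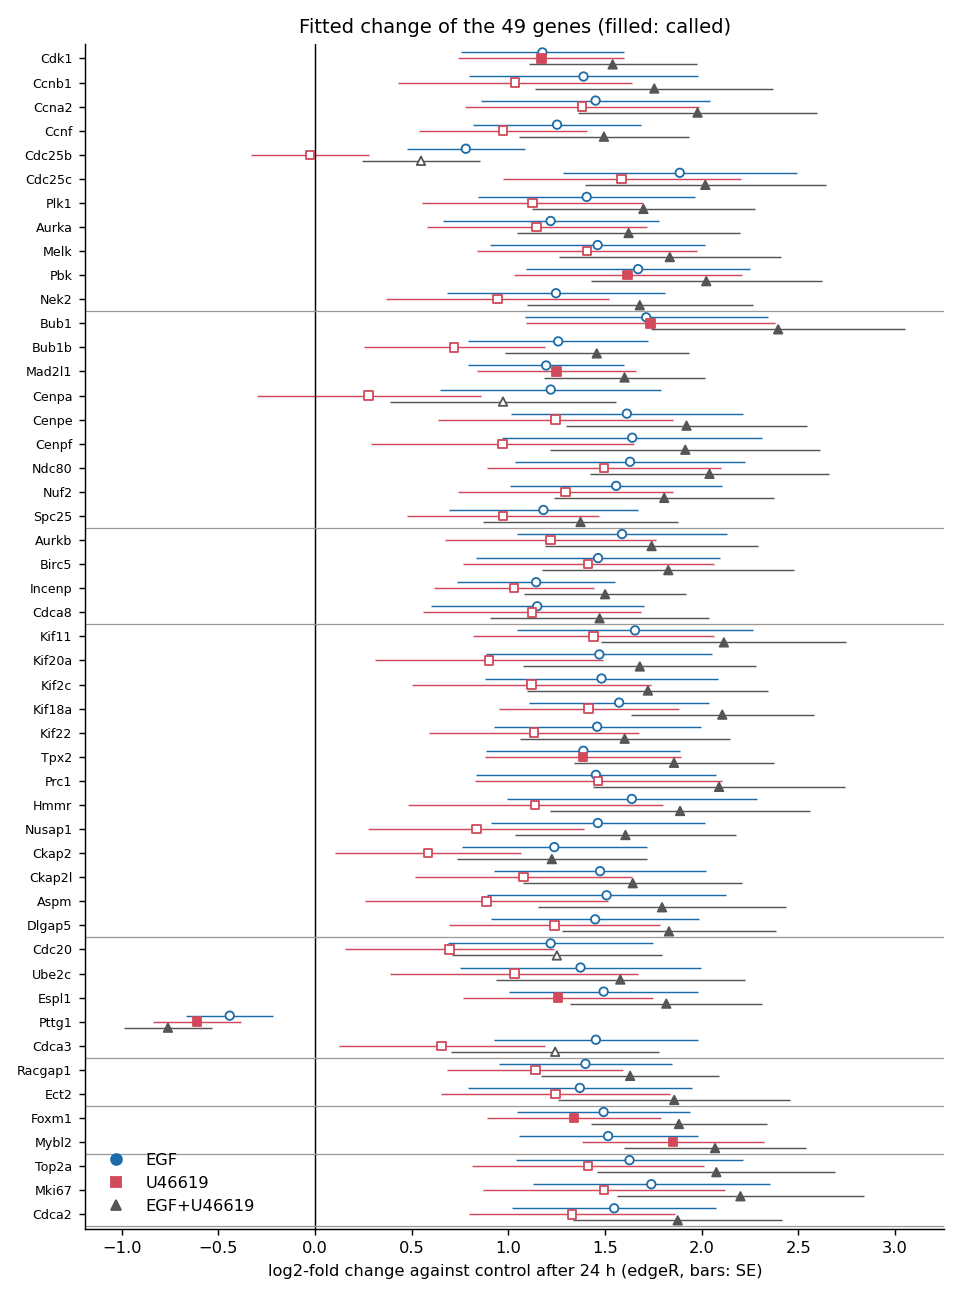
Fitted log2-fold change against control at 24 h (edgeR, bars are SE) of the 49 genes in role order for EGF (circles), U46619 (squares) and EGF+U46619 (triangles), filled where the gene was a DEG. No EGF point, 9 U46619 points and 45 EGF+U46619 points are filled, and Pttg1 is the gene whose 3 points lie left of 0 at -0.44, -0.61 and -0.76.

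Whether the incubations differed from each other was tested directly, and no direct comparison at 24 h gave a DEG among the 49 genes. U46619 against EGF gave 0 members where 11.0% of all genes were DEG (1 member at an edgeR p under 0.05, 27.5% of all genes, and 0 in DESeq2). The median log2-fold change was -0.24, and the lowest was that of Cenpa (-0.94 ± 0.55, FDR 0.28). Cdc25b (-0.81 ± 0.30, FDR 0.0695) was the member with p under 0.05. EGF+U46619 against U46619 gave 0 (0.0% of all genes, 0 members at p under 0.05 and 0 in DESeq2) with a median of 0.57 and 48 members above 0, and 23 members were higher in 6 of 6 mice (3.86% of all genes). EGF+U46619 against EGF gave 0, where 12.8% of all genes were DEG (0 members at p under 0.05 and 0 in DESeq2), with a median of 0.32, and 43 members were higher in exactly 3 of 6 mice. The per-mouse medians of that difference were 0.72, 0.97, 0.65, -0.54, -0.59 and -0.39, or 0.14 ± 0.71 (SD, n = 6).

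AngII added to EGF gave a median of 0.09 with 0 DEG (0.0% of all genes), and AngII added to EGF+U46619 a median of -0.09 with 0 DEG (0.0%), with 0 members at an edgeR p under 0.05 and 0 in DESeq2 in both. The test of whether EGF and U46619 together differ from the sum of their single log2-fold changes gave 0 DEG (0.0% of all genes, 0 in DESeq2). A sum on the log2 scale is a product of fold changes, whereas the study added fold changes. Whether the levels themselves add up was not tested. The median of the log2-scale test was -0.86, with 1 member above 0. The value of Mybl2, -1.30 ± 0.63 (edgeR FDR 1), was the only one at an unadjusted p under 0.05. The larger number of members called after EGF+U46619 than after U46619 is therefore a count against control, and the difference between these incubations passed the threshold for no member.

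Leaving out mice moved the U46619 count in both directions. It was 1, 1, 2, 29, 10 and 30 without mouse 1, 2, 3, 4, 5 and 6, and Mybl2 was the gene kept without mouse 1 and without mouse 2. The EGF+U46619 count was 21, 15 and 11 without mouse 1, 2 and 3, with a range of 11 to 48 over the 6. Without the library that stands apart at 24 h, U46619 gave 10 calls, EGF+AngII 20, EGF+U46619 45 and the triple incubation 36. The share of all genes called in each of these fits is not given here, so whether the counts moved for the members alone cannot be read.

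At 48 h, 1 of the 49 genes was a DEG in 1 of the 5 comparisons with control. EGF gave 0 members (0.0% of all genes, 0 members at an edgeR p under 0.05, 0 in DESeq2) with a median log2-fold change of 0.23. AngII gave 0 (0.0%) with a median of -0.23, and EGF+AngII 0 (0.0%) with a median of -0.23, both with 0 members at an edgeR p under 0.05 and 0 in DESeq2. These fitted values hold no term for the batch or the culture set. In the EGF/AngII batch alone the medians were -0.063 after AngII and -0.077 after EGF+AngII, and in the EGF/U46619 batch alone 0.40 after U46619 and 0.48 after EGF+U46619. U46619 gave 0 where 2.28% of all genes were called higher and 1.42% lower, with 16 members at an edgeR p under 0.05 (21.9% of all genes), 0 called by DESeq2 alone and a median of 0.61. EGF+U46619 gave 1, where 3.53% of all genes were called higher, with 25 members at an edgeR p under 0.05 (24 higher, 1 lower, 24.6% of all genes) and a median of 0.70. No direct comparison gave a member, in both tools or in DESeq2 alone. U46619 against EGF had 2 members at an edgeR p under 0.05 (2.96% of all genes were DEG), EGF+U46619 against EGF 6 (4.43%) and EGF+U46619 against U46619 0 (0.0%). With the EGF/U46619 batch alone and the culture set as a block, a fit chosen after seeing the data, U46619 gave 10 DEG among the members and EGF+U46619 12. The share of all genes called in that fit is not given here, so these counts cannot be set against the 2.28% and 3.53% above.

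The 1 gene was Kif2c (chr4:117159639-117182639 in mm10), a microtubule depolymerase that corrects attachments. In the EGF/U46619 batch it held 12.7, 10.8, 8.41, 14.3 and 6.33 FPM in the controls of replicates 1 to 5, 11.8, 12.5, 12.3, 16.2 and 15.8 after EGF and 9.11, 14.0, 22.6, 23.8 and 14.4 after U46619. After EGF+U46619 it held 10.5, 14.5, 21.9, 26.6 and 17.5 FPM, higher than control in 4 of 5 culture sets. In the EGF/AngII batch the controls of replicates 1, 2, 4, 5 and 6 held 5.75, 6.83, 9.99, 9.76 and 10.8 FPM. The log2-fold change of Kif2c after EGF+U46619 was 0.96 ± 0.29 (edgeR FDR 0.0398, DESeq2 0.0207). The call was kept without the control library that stands apart, and lost without replicate 2, 3, 4 or 5 of the EGF/U46619 batch, without replicate 1, 2 or 6 of the other, in the EGF/U46619 batch alone and without the mouse as a block. Bub1 had a larger estimate of 1.18 ± 0.39 but missed the threshold (FDR 0.0578), and Nek2, a kinase of centrosome separation, had 1.08 ± 0.39.

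Culture sets also differed at 48 h. In the EGF/U46619 batch, Top2a held 90.2, 71.8, 63.3, 129 and 67.1 FPM in the controls of replicates 1 to 5, 63.4, 77.5, 149.2, 177.2 and 136 after U46619 and 62.1, 70.1, 161.9, 173.1 and 153.3 after EGF+U46619. Replicates 3 and 5 lay furthest above their own controls and replicate 1 below, and after EGF+U46619 replicate 2 was below its control too. Cdk1 held 73.0, 63.3, 73.3, 116 and 54.0 FPM in control and 46.7, 72.6, 114, 132 and 108 after EGF+U46619. Over the 49 members, the median log2 difference to the set's own control was -0.11, 0.19, 0.57, 0.07 and 1.13 after EGF (0.37 ± 0.49, SD, n = 5). It was -0.52, 0.13, 1.07, 0.31 and 0.94 after U46619 (0.39 ± 0.64) and -0.57, 0.00, 1.07, 0.35 and 1.18 after EGF+U46619 (0.41 ± 0.74). In the EGF/AngII batch it was 0.05, 0.48, -1.27, 0.45 and -0.18 after EGF (-0.09 ± 0.71) and 0.02, 0.33, -0.37, 0.04 and -0.02 after AngII (-0.00 ± 0.25). The value of -1.27 is set against the control library that stands apart.

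**Figure D5:**
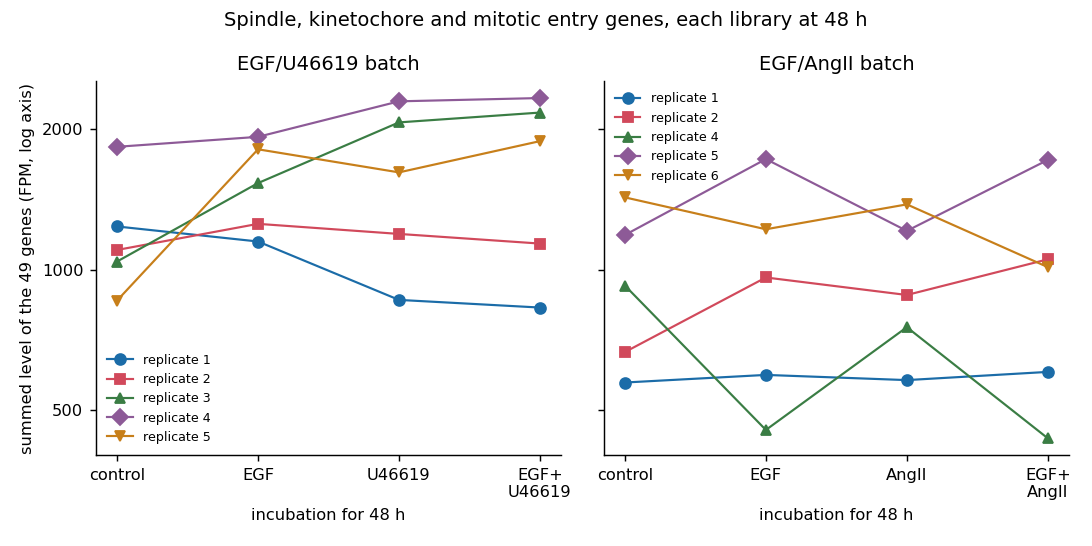
Summed level of the 49 genes (FPM, log axis) in each of the 40 libraries at 48 h, in 1 panel for each batch and 1 line for each culture set. In the EGF/U46619 batch the controls hold 859 to 1833 FPM and the EGF+U46619 libraries 830.2 to 2330.4 FPM, so the groups overlap.

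Pttg1 was again the gene that pointed down. In the EGF/U46619 batch it held 45.3, 36.0, 69.7, 50.7 and 46.2 FPM in the controls, 32.2, 27.5, 38.1, 35.2 and 30.9 after U46619 and 26.0, 30.6, 33.1, 37.5 and 26.5 after EGF+U46619, lower in 5 of 5 culture sets in both (14.2% and 13.6% of all genes). After EGF in that batch it held 34.2, 30.7, 47.6, 50.7 and 38.6 FPM, also lower in 5 of 5 sets (7.57% of all genes). Fitted over both batches, its log2-fold change of -0.38 ± 0.21 after U46619 and -0.46 ± 0.21 after EGF+U46619 was not a DEG. In the EGF/U46619 batch alone it was -0.57 ± 0.12 (FDR 0.00708) and -0.65 ± 0.12 (FDR 0.0021), a DEG in both. In the EGF/AngII batch the controls held 24.4, 32.9, 31.0, 52.0 and 29.8 FPM and the EGF libraries 27.6, 34.6, 63.8, 72.0 and 40.4 FPM, higher after EGF in 5 of 5 sets, among them the set whose control stands apart (3.49% of all genes).

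Markers of other cells moved with U46619 as well. After U46619 at 24 h, 7 of the 8 fibroblast markers were lower (median log2-fold change -1.32). The smooth muscle markers Actg2 (2.68), Acta2 (2.05) and Lmod1 (0.84) were called higher. Of the 8 smooth muscle markers tested, only 5 lay above 0, with a median of 0.25. The endothelial marker Cldn5 was lower (-0.96), with a median of -0.44 over that list. Of the macrophage and leukocyte markers, Lyz2 was lower (-1.31) and Csf1r higher (1.08). Of all genes, 12.8% were called higher and 13.8% lower after U46619 at 24 h. At 48 h, 2 of the 8 fibroblast markers were lower after U46619 (median -1.24, and -1.18 in the EGF/U46619 batch alone), where 1.42% of all genes were called lower. No endothelial marker was called, and their median was -1.67 over both batches but -0.24 in the EGF/U46619 batch alone. Smooth muscle markers gave 0 calls after U46619 at 48 h, with 1 of the 8 tested above 0 and a median of -0.48 over both batches. The part of all these markers in the changes of the mitotic genes was not tested.

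Other genes of the pathway were read from fixed lists. Of 71 further mitotic genes, 57 were tested. After U46619, 20 were higher and 1 lower, where 12.8% of all genes were called higher and 13.8% lower. After EGF+AngII 6 were higher (1.53% of all genes) and after EGF+U46619 48 (16.2%). After EGF (median 1.29) or AngII (median -0.01) 0 changed, where 0.0273% and 0.0% of all genes were DEG. Zwint, a kinetochore protein, rose by 0.57 ± 0.10 after U46619 (FDR 0.00011), and Psrc1, a spindle protein, fell, with a log2-fold change of -0.66 ± 0.15 (FDR 0.000843). Of the 9 tested subunits of the DREAM and MuvB complexes, 4 rose and 2 fell after U46619 (12.8% and 13.8% of all genes). Tfdp1 (0.66 ± 0.17), the partner of E2F factors, and the MuvB subunits Lin9 (1.37 ± 0.37) and Lin54 (0.81 ± 0.25) rose, while Rbl2 (-0.78 ± 0.21), the p130 pocket protein of DREAM, fell. The remaining calls of this list, named after their values were seen, were Rbl1 (1.15 ± 0.40), the p107 pocket protein, and Lin37 (-0.52 ± 0.18), a MuvB subunit.

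Among 14 tested subunits of the anaphase-promoting complex, 2 rose and 1 fell after U46619, namely Anapc15 (0.73 ± 0.15), Cdc27 (0.52 ± 0.19) and Anapc2 (-0.39 ± 0.12), where 12.8% of all genes were called higher and 13.8% lower. Of the 10 genes that act as brakes on mitotic entry, 2 rose and 2 fell. The kinases Pkmyt1 (1.06 ± 0.31) and Wee1 (0.58 ± 0.17), which inhibit Cdk1, rose. Cdkn1b, the inhibitor p27, fell (-0.78 ± 0.13, FDR 6.81e-05), and so did Ccng2 (-0.46 ± 0.18), cyclin G2, which was named after its value was seen. After EGF+U46619, 4 DREAM and MuvB subunits rose and 1 fell, 3 subunits of the anaphase-promoting complex rose and 1 fell, and 2 brakes rose and 2 fell. Of all genes, 16.2% were called higher and 15.7% lower after EGF+U46619. At 48 h after EGF+U46619, 2 of the further mitotic genes and 1 DREAM or MuvB subunit were higher, where 3.53% of all genes were called higher.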

How the data were processed

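RNA of 82 cultures of mouse aVSMC (42 at 24 h, 40 at 48 h) was sequenced. Per the labels and methods, the authors aligned the reads with HISAT2 2.1.0 to mm10 and counted them per gene with featureCounts, multi-mapping reads included, and the deposited values are raw counts. Counts were used as deposited, with edgeR 4.0.16 (quasi-likelihood test, TMM) and DESeq2 1.42.0 in R 4.3.3, 1 fit for each time point with mouse and treatment as terms, and Benjamini-Hochberg adjustment over all genes kept by filterByExpr (14653 at 24 h, 15796 at 48 h). A DEG needed an FDR under 0.05 in both tools and 5 FPM or more as the mean of either group. Differences within a mouse were taken on the log2(FPM + 0.5) scale. The scripts were tested on simulated data. Same-numbered samples at 24 h carry the same mouse number in the labels, and their deviations from the group means correlated by over 0.1 in 126 of 126 pairs (0.395 to 0.951). At 48 h this held for 57 of 60 pairs within culture sets. The remaining pairs were all of the control of replicate 4 of the EGF/AngII batch, with an r of -0.28 to each library of its set. That control was kept in the main fit. Of 185 replicate pairs, 0 were identical. All 7075 genes of chromosomes 9, X, Y and MT were listed at 0 and were not tested. Gene positions came from GENCODE vM21 (GRCm38) and promoter windows from RefSeq GRCm38.p6.

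All 49 members could be named. Values in full were given for the gene with the highest mean level of each role, the 2 highest and 2 lowest log2-fold changes of a comparison, and members called lower. Of other lists, up to 4 genes with the smallest p after U46619 at 24 h were named. The members, the lists and the tests were chosen with earlier results of these data known. Alternatives were another tool, normalization or filter, no block, the culture set as block, only the groups compared, 1 batch alone and leaving out each replicate. Leaving out the libraries that stand apart, and the EGF/U46619 batch with its culture sets as block, were chosen after seeing the data.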

Additional observations from a re-analysis of the deposited data

How the results depend on the processing

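Counts of the 49 genes called depended on the tool, the samples in the fit and single mice. The cause was not tested, except that a fit with only the groups compared holds fewer samples. The shares of all genes called in the alternative fits are not given here, so a change in a count may not be particular to the members. At 24 h, EGF gave 2 calls with DESeq2 alone and 1 without the filter on low counts. EGF+AngII gave 31 with DESeq2 alone, 23 without the filter, 1 with DESeq2's size factors, 20 without the library that stands apart, and 0 without the replicate block or with only the groups compared. With only the groups compared, U46619 gave 1 call, EGF+U46619 4, all 3 ligands 2, and U46619 against EGF 4 (1 without the library that stands apart). Leaving out 1 mouse gave ranges of 0 to 5 for EGF, 1 to 30 for U46619, 0 to 30 for EGF+AngII, 11 to 48 for EGF+U46619, 16 to 48 for all 3 ligands and 0 to 1 for U46619 against EGF. Without the replicate block, U46619 gave 9 calls (7 shared), EGF+U46619 44 (43 shared) and all 3 ligands 44.

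At 48 h, U46619 gave 1 call in the EGF/U46619 batch alone and 10 there with the culture set as replicate block. EGF+U46619 gave 2 with DESeq2 alone, with the culture set as block or in the batch alone, 12 in the batch alone with that block, and 0 without the filter, without the block or with only the groups compared, with 0 to 4 when a culture set was left out. With the culture set as block, U46619 against EGF gave 1, as did EGF+U46619 against EGF, also in the batch alone.

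Some single genes turned direction. After U46619 at 24 h, Cenpa ranged from -0.21 to 0.88 when a mouse was left out (below 0 without mouse 1 or 2). Cdc25b had 0.41 without the block, 0.0097 without the library that stands apart, 0.087 with only the groups compared, and -0.34 to 0.23 when a mouse was left out (above 0 without mouse 4, 5 or 6). After EGF at 48 h in the EGF/AngII batch alone, the values were -0.11 for Incenp, -0.056 for Tpx2, -0.064 for Racgap1, -0.29 for Foxm1, -0.19 for Top2a, -0.35 for Mybl2 and -0.15 for Bub1. Pttg1 had -0.28 in the EGF/U46619 batch alone and -0.29 there with the culture set as block. When a culture set was left out, the values after EGF ranged from -0.0025 to 0.25 for Tpx2, -0.0066 to 0.30 for Top2a, -0.024 to 0.17 for Pttg1 and -0.15 to 0.15 for Mybl2. With the culture set as block over both batches, Mybl2 had -0.036 after EGF, -0.095 after U46619 and -0.085 after EGF+U46619. Size factors moved the median of all genes by at most 0.0178 (log2). The SE over the members after EGF at 24 h was 0.225 to 0.671, and the share of it that depth adds was not tested.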
